A study of Mus musculus with 10 samples.

Results

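The 8 genes described here encode the contractile apparatus of smooth muscle: Myh11, Myl9, Mylk, Acta2, Tagln, Cnn1, Lmod1 and Des. They were taken by gene symbol from a table of read counts for 14995 mouse genes, and all 8 are in that table. RNA was sequenced in bulk from freshly sorted cells in 10 libraries. Skin Ebf2+ cells (3 libraries) and skin Ebf2- PαS cells, which carry CD140a and Sca1 (3 libraries), came from the dorsal skin of FVB/N mice aged 8 to 12 weeks. Bone marrow mesenchymal stem cells, called bone marrow below, carried Sca1 and CD51 and came from C57BL/6 mice aged 8 to 10 weeks (4 libraries). All cells were sorted as negative for CD45, TER119 and CD31, markers of leukocytes, erythroid cells and endothelium. No treatment is named for any group, and the sources used here do not say how Ebf2 was read in the sort. The design text names 3 mice for skin and 4 for bone marrow.

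In smooth muscle, a rise in calcium activates myosin light chain kinase, which phosphorylates the regulatory light chain of myosin and lets the myosin pull on actin filaments. Calponin, transgelin and leiomodin bind or build those filaments, and desmin intermediate filaments link the apparatus across the cell. The genes are controlled by serum response factor, which binds the CArG box, and by its partner myocardin. In skin, cells with this apparatus are known from vessel walls and from the arrector pili muscles of hair follicles, and pericytes and myofibroblasts hold parts of it.

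The CArG box was searched in the promoter windows that RefSeq gives for GRCm38.p6, each with 250 bases before and 50 after a start of the gene. That start lay 0 to 212 bases inside the gene's outermost end for all but Mylk, whose window sits on a start 39751 bases inside the gene. Such windows were found for 6 of the 8 genes, those of Acta2, Cnn1, Des, Lmod1, Myl9 and Mylk. The search on both strands took CC, then 6 letters that are A or T, then GG, and a relaxed form in which 1 of those 6 letters is G or C. The windows of Acta2 and Myl9 held matches, and they are shown because these are the 2 members with the most RNA per length in the skin cells. The Acta2 window lies at chr19:34255324-34255623 on the minus strand and the Myl9 window at chr2:156775214-156775513 on the plus strand, both written 5′ to 3′ with the matches in capitals.
Acta2: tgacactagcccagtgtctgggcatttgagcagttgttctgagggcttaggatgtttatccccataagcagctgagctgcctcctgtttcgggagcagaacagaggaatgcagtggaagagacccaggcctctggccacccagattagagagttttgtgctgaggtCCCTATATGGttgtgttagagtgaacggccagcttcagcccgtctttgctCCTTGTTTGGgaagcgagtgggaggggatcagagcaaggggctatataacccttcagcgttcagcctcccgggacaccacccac
Myl9: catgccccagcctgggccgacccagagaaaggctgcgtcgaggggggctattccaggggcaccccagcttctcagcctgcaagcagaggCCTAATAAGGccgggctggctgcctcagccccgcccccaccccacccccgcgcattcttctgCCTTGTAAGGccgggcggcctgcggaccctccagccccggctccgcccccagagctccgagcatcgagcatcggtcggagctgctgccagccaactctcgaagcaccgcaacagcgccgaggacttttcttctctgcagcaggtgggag
In Acta2 both matches, CCCTATATGG and CCTTGTTTGG, were of the relaxed form and began 84 and 34 bases upstream of the start. In Myl9 the strict match CCTAATAAGG began 161 bases upstream and the relaxed match CCTTGTAAGG began 99 bases upstream. The windows of Cnn1, Lmod1 and Des, and the internal window of Mylk, held neither form. Of 32851 windows of the same length over the genome, 1.63% held the strict form, 8.50% the relaxed form and 9.98% either. A match is a string of letters and not a measured binding site.

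The counts summed to 9830418 to 12982661 per library in Ebf2+ skin, 11637842 to 14149713 in Ebf2- skin and 18122495 to 39422062 in bone marrow. Levels are counts-per-million values (CPM) after TMM scaling, and a count of 3 reads equals 0.0901 to 0.349 CPM. Bone marrow 1 and 4 were nearly alike, with a chi-square per degree of freedom of 3.16 over genes against 95.62 to 564.6 for other pairs within a group. They may be 2 runs of 1 library, which was not settled. They were kept as 2, so n = 4 and the SDs of bone marrow depend on that, and the calls against bone marrow are also given with their counts summed. The labels credit bone marrow 1, 2 and 3, but not 4, to an earlier publication. The ribosomal RNA gene Rn45s held 0.593% and 0.170% of counts in the skin libraries numbered 3 and 3.04% to 12.5% elsewhere. Ebf2 itself stood at 210, 317 and 157 CPM in Ebf2+ skin, at 70.3, 73.5 and 47.1 CPM in Ebf2- skin, and at 337, 186, 141 and 330 CPM in bone marrow. Pdgfra (CD140a), Ly6a (Sca1) and Itgav (CD51) were present in all 10 libraries, with lowest levels of 599, 533 and 74.1 CPM. Ptprc (CD45) reached 61.9 CPM in skin Ebf2- 2 and Pecam1 (CD31) 20.9 CPM in skin Ebf2+ 3. Tissue, strain and sort differ together between skin and bone marrow, and cannot be told apart.

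Contractile transcripts stood highest in skin Ebf2+. The 8 genes summed to 861, 3750 and 833 CPM in the skin Ebf2+ libraries, to 200, 54.3 and 125 CPM in Ebf2- skin and to 181, 145, 130 and 182 CPM in bone marrow. The lowest skin Ebf2+ sum was thus above the highest of the other groups. In 7 of the 8 genes the mean was highest in skin Ebf2+, and Lmod1 was the exception. In bulk RNA, fewer cells of a type and less RNA per cell cannot be told apart. Skin Ebf2+ 2 was the highest of the 3 skin Ebf2+ libraries for 8 of 8 genes and the highest of all 10 libraries for 7 of 8. Over all genes tested, that library was the highest of its group for 30.9% and the highest of all 10 for 17.3%.

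**Figure D1:**
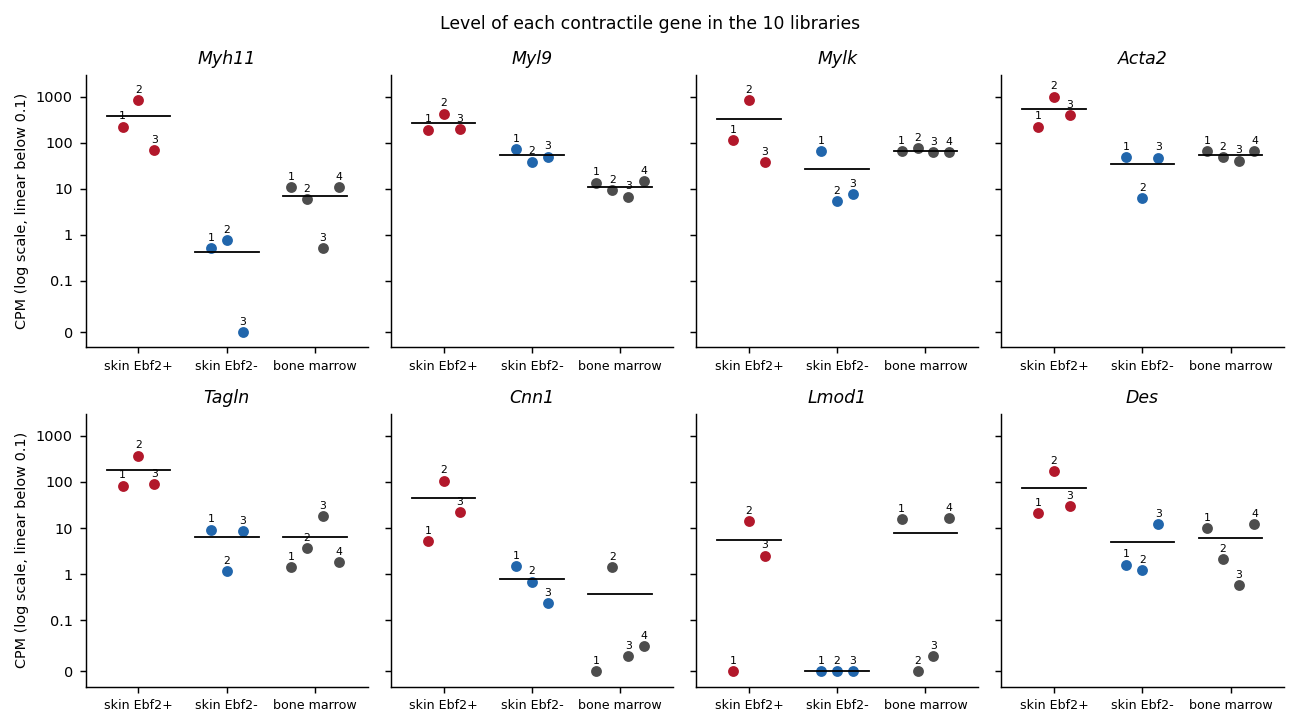
CPM of each contractile gene (vertical axis, log scale, linear below 0.1) in the 3 groups, with 1 point per library numbered by replicate and a line at the group mean. In all panels skin Ebf2+ 2 is the highest skin Ebf2+ library, and in Myh11, Myl9, Acta2, Tagln, Cnn1 and Des all 3 skin Ebf2+ libraries lie above all skin Ebf2- libraries.

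The motor came first. Myh11 (Entrez 17880, chr16:14194527-14292188 in GRCm38.p6) encodes the smooth muscle myosin heavy chain, whose expression is largely restricted to mature smooth muscle. It stood at 223, 843 and 67.5 CPM in Ebf2+ skin, at 0.512, 0.760 and 0 CPM in Ebf2- skin, and at 10.9, 5.95, 0.511 and 11.01 CPM in bone marrow. The skin Ebf2- values rest on 7, 11 and 0 reads, against 1922, 9672 and 860 reads in Ebf2+ skin. The skin Ebf2+ libraries lay above all others, and bone marrow 3 fell among the skin Ebf2- libraries. The mean of skin Ebf2+, 378 ± 410 CPM (SD, n = 3), was 891 times that of skin Ebf2-, 0.424 ± 0.387 CPM (n = 3), and 343 times without skin Ebf2+ 2. Bone marrow stood at 7.10 ± 4.99 CPM (n = 4), or 5.81 ± 5.23 CPM with bone marrow 1 and 4 as 1 sample.

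Myl9 (Entrez 98932, chr2:156775408-156781657) encodes the regulatory light chain that the kinase phosphorylates. Its levels were 192, 427 and 194 CPM in Ebf2+ skin, 71.7, 38.8 and 49.5 CPM in Ebf2- skin, and 13.5, 9.32, 6.76 and 14.6 CPM in bone marrow. No groups overlapped, and Myl9 was the 1 member for which skin Ebf2- also lay above bone marrow in every library. The means were 271 ± 135, 53.3 ± 16.8 and 11.05 ± 3.66 CPM in that order, so skin Ebf2+ was 5.08 times skin Ebf2- and 24.5 times bone marrow. Without skin Ebf2+ 2 the ratios were 3.62 and 17.5.

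Mylk (Entrez 107589, chr16:34745199-35002436) encodes myosin light chain kinase and is also read in cells that are not muscle. It stood at 112, 824 and 38.1 CPM in Ebf2+ skin, at 66.2, 5.46 and 7.62 CPM in Ebf2- skin, and at 65.0, 74.8, 62.6 and 61.9 CPM in bone marrow. Here the groups overlapped: skin Ebf2- 1 was above skin Ebf2+ 3, and all bone marrow libraries were above skin Ebf2+ 3. The ratio of skin Ebf2+ to skin Ebf2- was 12.3 with skin Ebf2+ 2 and 2.85 without it, and to bone marrow 4.92 and 1.14. Bone marrow libraries lay close together for this gene, at 66.0 ± 5.97 CPM. Of its 75-base stretches, 3.55% also occur in antisense genes.

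Among the thin filament genes, Acta2 (Entrez 11475, chr19:34240336-34255585) encodes smooth muscle alpha actin, which pericytes and myofibroblasts can also make. Its levels were 224, 991 and 389 CPM in Ebf2+ skin, 49.3, 6.15 and 47.0 CPM in Ebf2- skin, and 65.0, 48.2, 40.9 and 64.4 CPM in bone marrow. All skin Ebf2+ libraries lay above the rest, and skin Ebf2- overlapped bone marrow. Skin Ebf2- averaged 34.2 ± 24.3 CPM and bone marrow 54.6 ± 12.0 CPM. The mean of 534 ± 404 CPM in Ebf2+ skin was 15.6 times that of skin Ebf2- (8.96 times without skin Ebf2+ 2).

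Tagln (Entrez 21345, chr9:45929628-45936058) encodes transgelin, an actin-bundling protein also named SM22 alpha. It stood at 82.97, 374 and 90.04 CPM in Ebf2+ skin, at 9.22, 1.17 and 8.40 CPM in Ebf2- skin, and at 1.42, 3.61, 18.3 and 1.80 CPM in bone marrow. The skin Ebf2+ libraries again lay above the rest, and bone marrow 3 was the highest of the other 7. The ratio to skin Ebf2- was 29.1 and, without skin Ebf2+ 2, 13.8. Of the 75-base stretches of Tagln transcripts, 53.3% also occur in either orientation in Gm48529 or Pcsk7 on the other strand, and whether the counting used strand is not stated in the sources at hand. Pcsk7 stood at 14.3, 48.5 and 40.5 CPM in Ebf2+ skin, at 8.78, 9.81 and 46.6 CPM in Ebf2- skin, and at 45.3, 7.998, 16.0 and 41.2 CPM in bone marrow. The part of shared reads in the Tagln values was not tested.

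Cnn1 (Entrez 12797, chr9:22099221-22109221) encodes calponin, which binds actin and slows the myosin cycle. Its levels were 5.23, 107 and 22.04 CPM in Ebf2+ skin, 1.46, 0.691 and 0.236 CPM in Ebf2- skin, and 0, 1.41, 0.0300 and 0.05004 CPM in bone marrow. The skin Ebf2+ libraries lay above the rest. The skin Ebf2- and bone marrow values rest on 29 reads or fewer per library. The ratio of means to skin Ebf2- was 56.0, and 17.1 without skin Ebf2+ 2.

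Lmod1 (Entrez 93689, chr1:135324813-135368065) encodes leiomodin, which starts new actin filaments in smooth muscle. It held 0, 159 and 32 reads in Ebf2+ skin, 0 in each skin Ebf2- library, and 318, 0, 1 and 322 in bone marrow. It was thus read in a part of the libraries only: 2 of skin Ebf2+ and, in bone marrow, chiefly the near-alike 1 and 4. In CPM these were 13.9 and 2.51 in skin Ebf2+ 2 and 3, and 15.6 and 16.1 in bone marrow 1 and 4. Against a floor of 3 counts over the skin Ebf2- group (0.0734 CPM), the skin Ebf2+ mean was at least 74.3-fold higher and the bone marrow mean at least 108-fold higher. Without skin Ebf2+ 2 the first bound was 17.1-fold, and with bone marrow 1 and 4 as 1 sample the second was 72.1-fold. Without bone marrow 1 and 4 the bone marrow mean was 0.0150 CPM, under that floor, so the second bound rests on those libraries.

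Des (Entrez 13346, chr1:75360292-75368579) encodes desmin, the intermediate filament protein of muscle, also found in pericytes. It stood at 21.3, 171 and 30.0 CPM in Ebf2+ skin, at 1.61, 1.24 and 12.3 CPM in Ebf2- skin, and at 9.89, 2.15, 0.571 and 12.1 CPM in bone marrow. The skin Ebf2+ libraries lay above the rest, and the other groups overlapped. The ratio to skin Ebf2- was 14.7, and 5.10 without skin Ebf2+ 2. The antisense gene Gm15179 shares 220 bases of exon with Des and held 270 reads in skin Ebf2+ 2, where Des held 1963, and at most 17 in any other library.

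The first question is how skin Ebf2+ cells differ from Ebf2- PαS cells of the same skin. In 6 of the 8 genes, Myh11, Myl9, Acta2, Tagln, Cnn1 and Des, every skin Ebf2+ library was above every skin Ebf2- library, against 3.00% of the 13477 genes tested. Lmod1 did not pass the filter on low counts. All 7 genes tested had a positive log2 fold change, as 50.4% of all genes did, from 2.34 ± 0.61 (SE) for Myl9 to 9.75 ± 1.56 for Myh11. Between these were 4.87 ± 1.03 for Tagln, 5.79 ± 1.37 for Cnn1, 3.97 ± 0.96 for Acta2, 3.89 ± 1.21 for Des and 3.62 ± 1.35 for Mylk. Their median was 3.97, beside 0.00806 over all genes.

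None of the 7 passed an adjusted p of 0.05 in edgeR's quasi-likelihood test, nor did any gene (0 of 13477, 0%). That fit took no account of replicate number. The adjusted p was 0.392 for Myh11, 0.683 for Tagln and 0.873 for Acta2, Cnn1 and Myl9. At an unadjusted p under 0.05 all 7 were counted, beside 2.55% of genes in either direction and 1.76% higher. DESeq2 called 6 members, all but Mylk, among 116 genes (0.861%), and limma-voom called 0 members and 0 genes. The skin libraries numbered 3 varied together (r = 0.624). Those numbered 1 and 2 did so weakly (0.192 and 0.235), little above unequal numbers (up to 0.159). When the replicate number entered the fit as a block, Myh11 passed (9.69 ± 0.62, adjusted p = 0.00533, edgeR), 1 of 8 genes called (0.0594%). In that blocked fit Myh11 had an adjusted p of 0.0741 without the skin libraries numbered 2, and 0.0299 and 0.00729 without those numbered 1 and 3.

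The second question is how skin Ebf2+ cells differ from bone marrow. The quasi-likelihood test found Myl9, Myh11, Acta2 and Tagln higher in skin Ebf2+, 4 of 8 members, where 0.565% of 14520 genes were called higher. The log2 fold changes were 4.62 ± 0.52 for Myl9 (adjusted p = 0.00146), 5.74 ± 1.15 for Myh11 (0.0390), 3.29 ± 0.69 for Acta2 (0.0485) and 4.86 ± 1.04 for Tagln (0.0499). With bone marrow 1 and 4 summed, Myl9 alone passed (4.72 ± 0.65, adjusted p = 0.00893), where 0.181% of genes were called higher. Myh11, Acta2 and Tagln then had adjusted p of 0.0989, 0.126 and 0.123.

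Leaving out single libraries had a like effect. Myl9 passed whichever of the 10 was left out. Myh11 passed only without skin Ebf2+ 3 or skin Ebf2- 3, Acta2 only without skin Ebf2+ 3 or skin Ebf2- 2, and Tagln only without skin Ebf2+ 3 or bone marrow 3, each losing its call without any of the other 8. Cnn1 had the largest log2 fold change of the members, 6.89 ± 1.70, and did not pass (adjusted p = 0.0818). Des and Mylk stood at 3.59 ± 1.16 (0.166) and 2.30 ± 0.97 (0.285), and Lmod1 at -0.54 ± 2.18 (0.939). In the same 6 genes named for the skin comparison, all skin Ebf2+ libraries were above all bone marrow libraries, against 6.07% of genes.

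The third comparison, of skin Ebf2- with bone marrow, gave no member called in edgeR (106 of 14520 genes, 0.730%). At an unadjusted p under 0.05 there were 3 members, Myl9 higher and Myh11 and Lmod1 lower in skin Ebf2-, beside 12.2% of genes. DESeq2 called the same 3 members (5.48% of genes) and limma-voom called 0 (2.02%). The difference nearest to the threshold was Myl9, higher in skin Ebf2- in every library by 2.27 ± 0.48 (adjusted p = 0.0540, and 0.132 with bone marrow 1 and 4 summed). A gap of this kind, all skin Ebf2- above all bone marrow, was present in 9.46% of genes. Myh11 stood at -4.02 ± 1.24 (0.176) and Mylk at -1.32 ± 0.99 (0.665). For Acta2 the value was -0.68 ± 0.68 and for Tagln -0.0049 ± 0.95, whose sign changes with the setting. Both comparisons with bone marrow share its 4 libraries.

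**Figure D2:**
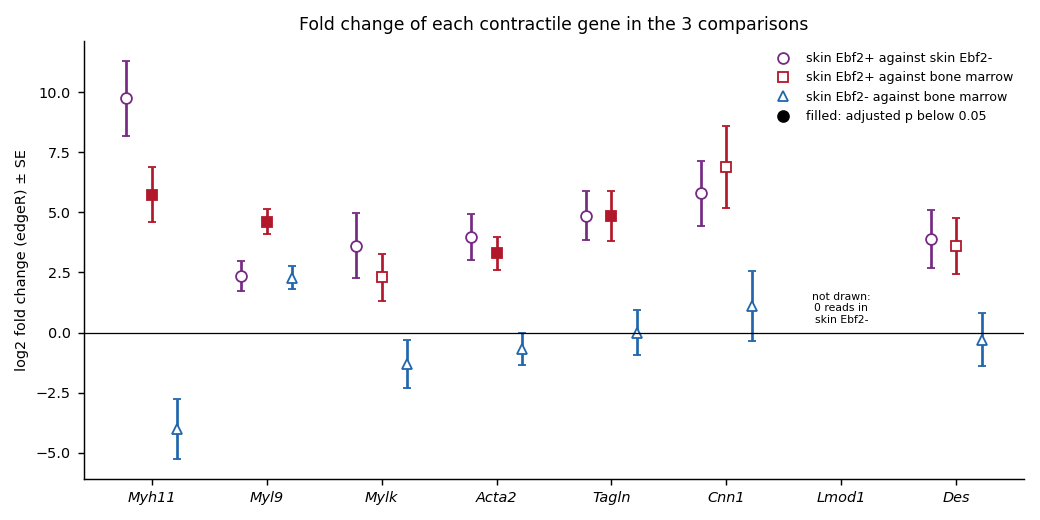
Log2 fold change from edgeR with its SE (vertical axis) for each contractile gene in the 3 comparisons, filled where the adjusted p is below 0.05. The purple and red points are above 0 for all 7 genes drawn, 4 red points are filled, and Lmod1 is not drawn because skin Ebf2- held 0 reads.

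Dividing CPM by kilobases of exon lets levels be set beside each other across genes. In skin Ebf2+ Acta2 (243 ± 184 CPM per kb) and Myl9 (233 ± 116) led, followed by Tagln (91.7 ± 83.5), Myh11 (49.7 ± 54.0), Mylk (28.8 ± 38.5), Des (19.7 ± 22.4), Cnn1 (16.3 ± 19.8) and Lmod1 (1.38 ± 1.87). Within each of the 3 skin Ebf2+ libraries Acta2 and Myl9 were above Tagln, Tagln above Myh11, and Myh11 above Mylk, Des and Cnn1, with Lmod1 last. The order of Acta2 and Myl9, and that of Mylk, Des and Cnn1, changed between libraries. In skin Ebf2- Myl9 led at 45.9 ± 14.4 CPM per kb, ahead of Acta2 at 15.6 ± 11.1, and the other 6 were at 3.15 or below. In bone marrow Acta2 led at 24.9 ± 5.48, then Myl9 at 9.51 ± 3.15 and Mylk at 5.86 ± 0.53. Acta2 lay above both in every bone marrow library, and within each library Myl9 lay above Mylk, though their ranges over the libraries overlapped.

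The make-up of the contractile RNA varied between the groups as well as its amount. Of the CPM per kb summed over the 8 genes, Myl9 made up 59.0% to 88.0% in Ebf2- skin, 28.7% to 46.5% in Ebf2+ skin and 14.8% to 22.04% in bone marrow, with no overlap. Acta2 made up 28.6% to 42.3% in Ebf2+ skin, 7.37% to 29.6% in Ebf2- skin and 47.2% to 54.5% in bone marrow. Myh11 contributed 8.26%, 8.67% and 2.12% in Ebf2+ skin, at most 0.263% in Ebf2- skin and at most 2.58% in bone marrow. These shares do not depend on the scaling between libraries, and they are given as a description with no test.

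**Figure D3:**
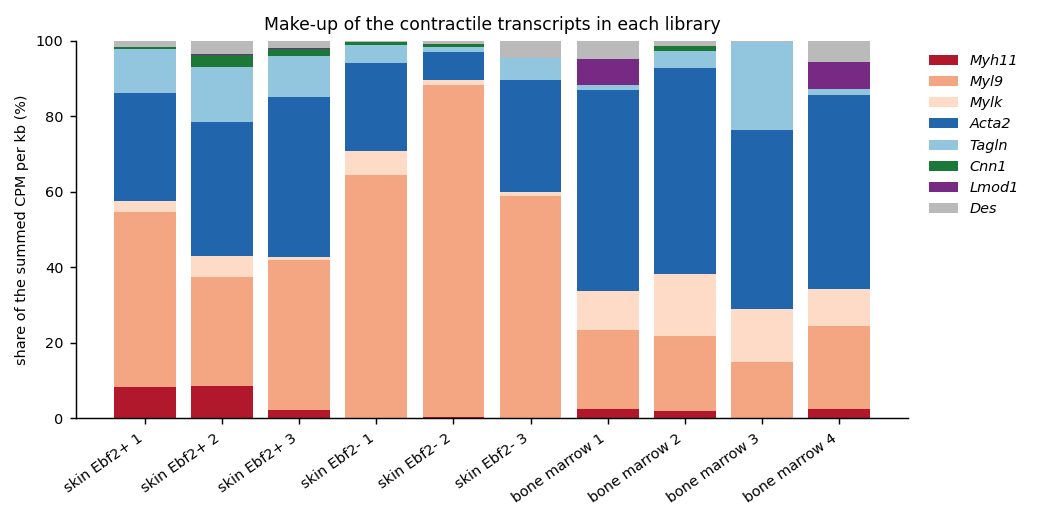
Share of the summed CPM per kb (vertical axis, percent) that each of the 8 contractile genes held in each library (bars). Myl9 fills 59.0% to 88.0% of the skin Ebf2- bars, and Acta2 47.2% to 54.5% of the bone marrow bars.

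The genes did not all follow 1 pattern over the libraries. On log2 CPM centred on each gene's mean over groups, Acta2 lay nearest to the mean of the other members (root-mean-square difference 0.797) and Lmod1 farthest (3.02). Skin Ebf2- 2 was the lowest of its group in 5 of the 7 genes read there, and the share over all genes was not counted. That library had leukocyte markers summing to 1210 CPM, against at most 105 CPM in any other, and their part in its low values was not tested.

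**Figure D4:**
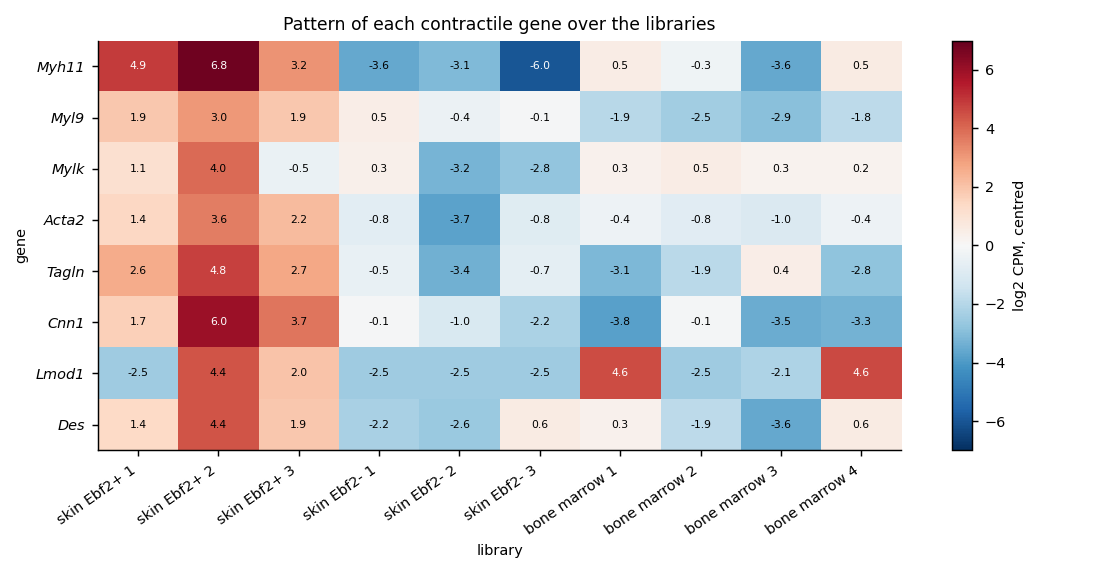
Log2 CPM of each contractile gene (rows) in each library (columns), centred on the mean of the gene's 3 group means, with the value printed in each cell. Red marks a level above that mean and blue below it, and skin Ebf2+ 2 is red in all 8 rows.

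Many of these proteins have relatives that non-muscle cells use for their own cytoskeleton. For 6 members these relatives were set beside them, a pairing made after the values were seen. Myh9 and Myh10 are non-muscle myosin heavy chains, Actb and Actg1 cytoplasmic actins, Myl12a and Myl12b light chains, Tagln2, Cnn2 and Cnn3 further transgelin and calponins, and Vim the intermediate filament vimentin. Their log2 fold changes in skin Ebf2+ against skin Ebf2- ranged from -1.42 (Myh10) to 1.08 (Myh9), and none of the 10 passed. Against bone marrow they ranged from -1.19 to 1.22, with a lowest adjusted p of 0.388 in edgeR. Actb, the highest of them, stood at 2841 ± 402 CPM in Ebf2+ skin, 2525 ± 532 CPM in Ebf2- skin and 2321 ± 268 CPM in bone marrow. Each of the 6 members had a larger log2 fold change than the relatives set beside it in both comparisons, which depends on the relatives chosen. They are 10 of 18 related genes in the table, and among the others Nes, the intermediate filament nestin, was at 4.23 between the skin groups, above Des. Against bone marrow Myh14 was at 4.31, Tmod1 at 2.66 and Tmod2 at -2.64. Actg2, a smooth muscle actin, stood at 0.232, 12.8 and 8.86 CPM in Ebf2+ skin and at most at 0.0488 CPM in bone marrow. None of the 17 tested passed. The difference between a member and its relative was not tested.

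**Figure D5:**
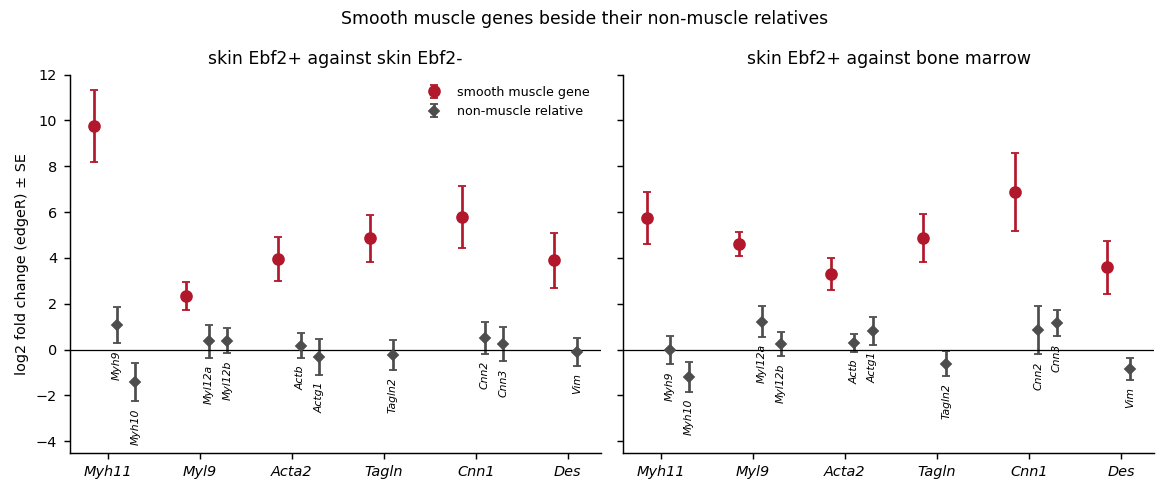
Log2 fold change with SE (vertical axis) of 6 smooth muscle genes (red) and their non-muscle relatives (grey, named), in skin Ebf2+ against skin Ebf2- (left) and against bone marrow (right). The 10 relatives drawn, chosen with their values known, lie between -1.42 and 1.22 and the 6 members at 2.34 or above.

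Other genes of the smooth muscle programme were counted by list. Of 27 other genes of the smooth muscle cytoskeleton, 26 were tested between the skin groups, 22 had positive fold changes (50.4% of all genes) and 7 were higher at an unadjusted p under 0.05 (1.76% of all genes), but none passed. Their median log2 fold change was 1.19, beside 0.00806 over all genes. Lpp, an adaptor of focal contacts and the highest of this list, stood at 1022, 1730 and 159 CPM in Ebf2+ skin and at 616, 601 and 138 CPM in Ebf2- skin. Of 22 genes of contraction signalling, 15 were positive, with a median of 0.22. Of 19 channel, calcium and receptor genes tested, 15 were positive (median 0.64), and Cavin1, which builds caveolae, was at 0.13 ± 0.57. Of 24 regulators tested, 13 were positive (median 0.07), and Tgfbr2, a receptor of transforming growth factor beta, was at -0.49 ± 0.58. No gene of these 4 lists passed in this comparison.

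Against bone marrow, the genes of these lists that passed, Synm and Kcnma1, were both lower in skin Ebf2+, where 0.358% of all genes were called lower. At an unadjusted p under 0.05 in edgeR, 9 of 27 cytoskeleton genes were higher and 3 lower. Among 22 signalling, 21 channel and 25 regulator genes, 3, 5 and 5 were higher and 1 of each list lower. Over all genes 8.42% were higher. Positive fold changes numbered 17, 9, 12 and 11 in the 4 lists (52.6% of all genes). Synm, which encodes the intermediate filament protein synemin, a partner of desmin, stood at 12.3, 29.5 and 8.31 CPM in Ebf2+ skin, at 9.88, 8.91 and 8.48 CPM in Ebf2- skin, and at 128, 123, 235 and 124 CPM in bone marrow. All skin libraries were thus far below all bone marrow libraries, opposite to Des in skin Ebf2+. The log2 fold change was -3.19 ± 0.57 for skin Ebf2+ (edgeR adjusted p = 0.0235, and 0.0535 with bone marrow 1 and 4 summed) and -4.07 ± 0.60 for skin Ebf2- (0.00663, and 0.0197 summed). Kcnma1, a calcium-activated potassium channel that relaxes smooth muscle, fell in skin Ebf2+ by 7.38 ± 1.33 (0.0235, and 0.0397 summed). It stood at or below 0.627 CPM in Ebf2+ skin and at 0.805, 12.8 and 1.18 CPM in Ebf2- skin. Bone marrow held 29.4, 65.3, 117 and 27.3 CPM, above all skin libraries. Such a gap was present in 7.66% of genes for skin Ebf2+ and in 9.27% for skin Ebf2-. For skin Ebf2- against bone marrow Kcnma1 did not pass in edgeR.

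Myocd, which encodes myocardin, falls outside the naming rule and was chosen after its values were seen. It stood at 4.88, 22.5 and 0.627 CPM in Ebf2+ skin, at 0.219, 0 and 0 CPM in Ebf2- skin, and at 0.147, 0, 0.451 and 0 CPM in bone marrow. All skin Ebf2+ libraries were above all others, though skin Ebf2+ 3 at 0.627 CPM was close to bone marrow 3 at 0.451 CPM. Such a gap was present in 3.00% of genes tested between the skin groups and in 6.07% against bone marrow. The order in Ebf2+ skin was that of Myh11 (2, then 1, then 3), and also that of the pericyte markers Notch3 and Mcam. Myocd did not pass the filter on low counts between the skin groups, and its adjusted p against bone marrow was 0.195 in edgeR. Serum response factor, Srf, stood at 40.9, 45.0 and 33.0 CPM in Ebf2+ skin and at 26.0, 99.0 and 31.6 CPM in Ebf2- skin. In bone marrow it stood at 83.4, 49.4, 98.7 and 92.4 CPM, above all skin Ebf2+ libraries.

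The 6 genes whose centred log2 CPM over the 10 libraries was most like the mean of the members, among 10538 candidates, were Septin4, Apod, Avpr1a, Dsn1, Aspa and Parm1. Their root-mean-square differences were 1.03, 1.10, 1.15, 1.16, 1.17 and 1.20, beside a median of 2.40 over the candidates. Apod, which encodes the lipid-binding apolipoprotein D, stood at 3569, 6126 and 2494 CPM in Ebf2+ skin and at 413, 402 and 266 CPM in Ebf2- skin. Avpr1a, a vasopressin receptor that constricts vessels, stood at 28.5, 115 and 21.2 CPM in Ebf2+ skin and at 3.88, 0.276 and 13.7 CPM in Ebf2- skin. All 6 were picked for this likeness, so their levels are a description.

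Markers of other cells that carry contractile genes were read in the same libraries. Of 13 pericyte markers 12 were in the table. They summed to 1850, 3419 and 1107 CPM in Ebf2+ skin, 1001 to 1112 CPM in Ebf2- skin and 1435 to 1844 CPM in bone marrow. Skin Ebf2+ 2 was again the highest, while the sum in skin Ebf2+ 3 lay within the skin Ebf2- range and below bone marrow. That place of skin Ebf2+ 3 came from Anpep, at 490, 415 and 49.8 CPM in Ebf2+ skin and 556, 617 and 71.0 CPM in Ebf2- skin. In bone marrow Anpep stood at 664, 578, 655 and 702 CPM. Without it, skin Ebf2+ 3 lay above every skin Ebf2- library and among those of bone marrow. Of 11 markers tested between the skin groups, 8 had positive fold changes (50.4% of all genes), 7 of them at an unadjusted p under 0.05 (1.76% of all genes), and none passed. The other 3, Kcnj8, Ndufa4l2 and Anpep, had lower means in Ebf2+ skin (26.9, 11.1 and 318 CPM) than in Ebf2- skin (73.1, 36.4 and 415 CPM). Rgs5, a defining pericyte marker, stood at 11.2, 134 and 2.67 CPM in Ebf2+ skin and at 0, 0.8286 and 0 CPM in Ebf2- skin. Notch3 stood at 192, 746 and 24.1 CPM and at 1.02, 22.2 and 2.36 CPM in the same groups. In bone marrow Rgs5 stood at 0.0489, 0.0975, 4.03 and 0 CPM and Notch3 at 64.1, 39.1, 5.92 and 66.3 CPM. Neither was above bone marrow in every skin Ebf2+ library, while Mcam, Vtn and Kcnj8 of the 12 were, as were 6.07% of genes. Of 12 markers tested against bone marrow, 8 had positive fold changes (52.6% of all genes). At an unadjusted p under 0.05 in edgeR, 6 were higher (8.42% of all genes) and 0 lower. Vtn passed as higher (0.565% of all genes), but not with bone marrow 1 and 4 summed. Between the skin groups, a part of these markers was thus high where the contractile genes were, and their part in the results was not tested.

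Skeletal muscle markers, of which 9 of 24 were in the table, summed to 17.7 to 100 CPM in Ebf2+ skin, 12.2 to 52.9 CPM in Ebf2- skin and 19.8 to 43.4 CPM in bone marrow, and the groups overlapped. Keratinocyte markers (12 of 12 in the table) summed to 165, 22.04 and 1077 CPM in Ebf2+ skin, so skin Ebf2+ 2, the highest for the contractile genes, was the lowest of the group for these. They summed to 258 to 960 CPM in Ebf2- skin and at most 6.43 CPM in bone marrow. Endothelial markers (8 of 12) summed to 244 to 422 CPM in Ebf2+ skin and 234 to 291 CPM in Ebf2- skin. Skin Ebf2+ 2 had the lowest sum of its group, but this order came from Tek, at 341, 19.3 and 240 CPM in Ebf2+ skin. Of the others, Cdh5, Esam and Eng were highest of the group in skin Ebf2+ 2, and Pecam1, Kdr, Egfl7 and Flt1 in skin Ebf2+ 3. Myofibroblast markers (10 of 10) summed to 2866 to 5600 CPM in Ebf2+ skin, 5313 to 6560 CPM in Ebf2- skin and 12368 to 23234 CPM in bone marrow. Most of each sum was Fn1, at 4245, 3072 and 1803 CPM in Ebf2+ skin and 10547, 15834, 20919 and 10579 CPM in bone marrow. Between the skin groups 4 of the 10 had positive fold changes (50.4% of all genes). At an unadjusted p under 0.05 in edgeR, 2 were higher and 1 lower (2.55% of all genes in either direction), and none passed.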

How the data were processed

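The 10 libraries were made with the SMART-Seq v4 and Nextera XT kits and read as 75-base single ends, per the labels' protocols. STAR 2.6.1d, featureCounts and DESeq2 are among the tools in the submitters' processing notes. The deposited raw counts are whole numbers per gene for 14995 genes. Another 10 columns of values per sample were not used. Gene symbols replaced by dates (18) were restored by Entrez number, and 251 genes had no symbol. Columns were linked to samples by the number in their names, a link the labels do not state.

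The test was that of edgeR 4.0.16 under R 4.3.3 (quasi-likelihood, TMM, filterByExpr, two-sided, Benjamini-Hochberg over all genes tested, threshold 0.05). Skin Ebf2+ and Ebf2- were compared over the 6 skin libraries, and each with bone marrow over all 10. SE is the log2 fold change divided by the square root of F. Alternatives used DESeq2 1.42.0, limma 3.58.1, other filters and scalings, and fewer libraries. Exon lengths came from GENCODE vM21 and coordinates from RefSeq. Likeness of patterns used log2 CPM with a prior count of 2, for genes with a mean of at least 10 CPM in 1 group.

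The members and gene lists were chosen with earlier results of these data known. The genes named besides the members are the sort markers, at most 3 genes each way per smooth muscle list that passed, the gene with the highest level of a list where none passed, and the 6 with the most similar pattern. A gene that the rule names from the contraction signalling list is not reported here. Marker genes of pericytes (Rgs5, Notch3, Mcam, Vtn, Kcnj8, Ndufa4l2, Anpep), of endothelium and of myofibroblasts are named outside this rule, with their values known. So are Myocd, Srf and the relatives of the members.

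The labels number the replicates, and the skin cells came from 3 mice per the series' design text. Deviations from the group means correlated between skin libraries of equal number (r = 0.192, 0.235 and 0.624 across genes), each above 0.1. The fit with a replicate block took the numbers as pairs. Unequal numbers 1 and 2 also passed 0.1 (0.159 and 0.156), so this limit cannot tell pairs from other libraries there. Whether libraries of equal number came from the same mouse was not settled. Where nothing else says that libraries came from separate mice, p-values measure only the spread between these libraries, which may be technical. Reads were amplified and carry no molecular identifiers, so they are not independent, and floors cover counting error only.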

Additional observations from a re-analysis of the deposited data

Results flagged for a closer look

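In the bone marrow group of 4 libraries, Tagln stood at 18.27 CPM in bone marrow 3, where the gap to the next library was 0.87 of the whole range. Cnn1 stood at 1.414 CPM in bone marrow 2, where that gap was 0.965 of the range. Both exceed Dixon's 95% value for 4 samples, which chance passes in about 1 of 20 groups, and 8 genes were examined. Bone marrow 1 and 4 were nearly alike, and whether they are separate samples was not settled. Counted as 1 they leave a group of 3, to which this measure is not applied.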

How the results depend on the processing

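Between the skin groups, none of 132 member values over 19 alternatives changed sign, and 10 passed where the reported one did not. Calls were 116 genes with 6 members in DESeq2, 8 and 1 with the replicate block, 21 and 1 in limma-voom with the block, and 0 and 0 in each fit without 1 library. With the block and without the skin libraries numbered 1, 2 or 3 they were 2, 1 and 2 genes with 1, 0 and 1 members. These last 4 fits were chosen after seeing the data. In skin Ebf2+ against bone marrow, of 174 values 42 lost their call, 4 gained one and 6 reversed. Genes and members called were 1105 and 5 in DESeq2, 223 and 5 in limma-voom, 67 and 2 with the replicate block, and 237 and 2 without the skin libraries numbered 3. They were 51 and 1 with bone marrow 1 and 4 summed, 1 and 0 with bone marrow 4 alone (an arm of 1 library, with the spread taken from the skin groups), 51 and 1 with bone marrow 1 to 3, 76 and 2 with only the groups compared, and 44 to 200 and 1 to 4 without 1 library. In skin Ebf2- against bone marrow, 7 of 173 values gained a call and 15 reversed. Genes called were 796, 293, 69, 47, 2, 46 and 262 in DESeq2, limma-voom, with the block, summed, with bone marrow 4 alone, 1 to 3 and only the groups compared, and 34 to 190 without 1 library. Members called were 3 in DESeq2, 1 with a 10 CPM filter, 1 with only the groups compared, and 0 to 1 without 1 library.

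The reversed values were of genes near 0 or read in few libraries, and none passed. Lmod1 in skin Ebf2+ against bone marrow was 1.014 in limma-voom, 4.75 with the replicate block, 0.0693 with bone marrow 1 to 3, and -2.73 to 0.0693 over the fits without 1 library, above 0 without skin Ebf2+ 1, bone marrow 1 or bone marrow 4. In skin Ebf2- against bone marrow Tagln was 0.0255 with DESeq2 size factors, 0.0294 with a 10 CPM filter, 0.0726 in limma-voom, 0.192 with the block, 1.79 with bone marrow 4 alone, 0.0029 with only the groups compared, and -0.402 to 1.46 over the fits without 1 library, above 0 without skin Ebf2- 2 or bone marrow 3. Des there was 0.284 with the block, 0.0718 summed, 0.255 with bone marrow 1 to 3, and -2.08 to 0.255 over the fits without 1 library, above 0 without skin Ebf2- 1, skin Ebf2- 2, bone marrow 1 or bone marrow 4. The cause was not tested. The replicate numbers did not pair bone marrow with skin, with correlations between -0.0541 and 0.130. Depth limits Cnn1, Lmod1, Myh11, Tagln and Des where libraries held under 30 reads.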
